A study of Mus musculus with 20 samples.

Results

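Germinal centre B cells move between a dark zone, where they divide and mutate their antibody genes, and a light zone, where they are tested for antigen binding and receive help from T cells. Sorters tell the zones apart by surface proteins. CXCR4, the chemokine receptor that holds cells in the dark zone, is high there, and CD86, a costimulatory ligand, is high on light zone cells. The cells described here had a dark zone transcriptome by the authors' annotation, and the question was what they look like when their surface placed them in the light zone gate.

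The members were the annotated dark zone cells of 2 sort gates, 139 cells of the light zone gate and 249 cells of the dark zone gate, 388 of the 1367 cells in the series. The annotation placed 139 of 367 light zone gate cells in the dark zone state (37.9%, exact Clopper-Pearson 95% interval 32.9 to 43.1). It placed 249 of 325 dark zone gate cells there (76.6%, 71.6 to 81.1). The median over 20 plates was 35.0% in the light zone gate and 78.4% in the dark zone gate. A further 63 annotated dark zone cells from the pre-plasma gate and 1 from the plasma gate were not members.

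All cells came from lymph nodes of C57BL/6 mice immunized with the hapten NP on the carrier KLH in Sigma Adjuvant System. They were eYFP+ B cells and plasma cells, collected on day 15, which was 4 days after tamoxifen. The labels do not give the allele or promoter behind eYFP. Cells were index-sorted into 20 plates, 10 under the sampleID C57BL/6F and 10 under C57BL/6M, and read by FB5P-seq, a plate-based 5′-end method that gives gene counts and antibody chains from the same cell. Both gates were sorted into the same plates, so each comparison was made within plates. How many animals were used is not in the labels, so p-values measure only the spread between plates, which may be technical, and sampleID, sex and animal cannot be told apart.

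The median light zone gate member held 62184 counts (range 649 to 279203) and 1473 genes, against 51553 counts (261 to 270320) and 1406 genes in dark zone gate members. Over 19 plates with at least 3 cells of both gates, counts, genes and the spike-in fraction per cell did not pass the paired permutation test (adjusted p = 0.907, 0.80 and 0.835). Plate medians of counts per cell averaged 58784 ± 17532 in light zone gate members and 58176 ± 24570 in dark zone gate members (SD over plates). Members fell into 6 of the authors' clusters. All 1367 cell barcodes were distinct.

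The gates differed on the surface by construction, and these channels are given with no test. Plate medians of CD86 fluorescence ran between 2.55, 3.07 and 3.47 (lowest, median and highest) in light zone gate members, against 1.10, 1.60 and 1.98 in dark zone gate members. The CD86 ranges did not overlap. CXCR4 medians were 1.78, 2.44 and 2.66 in light zone gate members, against 2.58, 2.79 and 3.0025 in dark zone gate members. CXCR4 was lower in the light zone gate on 19 of 19 plates, with a small overlap across plates. Fluorescence is on the deposited scale, which the deposited column names give as the inverse hyperbolic sine of the signal, divided by 10 for these channels and the dead cell dye and by 100 for the rest.

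The annotation was set beside markers in the members and in the 189 annotated light zone cells of the light zone gate. Plate medians of counts per cell averaged 52283 ± 22220 in those annotated light zone cells. At least 1 count of Gcsam, a dark zone list gene and a germinal centre signalling adaptor, was found in 73.4% of light zone gate members and 79.1% of dark zone gate members, against 39.7% of those annotated light zone cells. Sema4b of the same list went the other way, found in 0% of light zone gate members and 2.81% of dark zone gate members, against 3.17% of those annotated light zone cells. Ccnb2, a mitotic cyclin from the G2 and M phase list, was found in 50.4% of light zone gate members and 45.8% of dark zone gate members, against 24.3% of the annotated light zone cells. Polh, an error-prone DNA polymerase, was found in 8.63% of light zone gate members and 10.8% of dark zone gate members, against 2.12% of the annotated light zone cells. Cxcr4 transcripts were sparse: 10.8% of light zone gate members and 12.5% of dark zone gate members had a count, against 3.70% of annotated light zone cells. Of the genes that define T cells, Cd3g, Trac, Cd4 and Cd8a had 0 counts in the tested pools of both gates, and Cd3d and Cd28 had 1 count each, both in the dark zone gate. Of those that define myeloid cells, Csf1r, C1qa, C1qb and Adgre1 had 0 counts in both gates, while Fcer1g had 16 counts and Tyrobp 14 in the light zone gate and 0 each in the dark zone gate. The summed myeloid list had a median of 406 CPM (0 to 633) in light zone gate pools and 326 CPM (154 to 744) in dark zone gate pools, nearly all from Cst3, a protease inhibitor, with 3407 counts in light zone gate pools and 5502 in dark zone gate pools. The part of other cell types in the results was not tested. How the annotation was made is not given in the sources used here. If it used transcripts, members of both gates had already been chosen for a shared transcriptome.

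The deposited zone scores still differed by gate, and they are given as a description. The dark zone score averaged 0.0444 ± 0.0186 in light zone gate members and 0.0803 ± 0.0277 in dark zone gate members, lower in the light zone gate on 18 of 19 plates. The light zone score averaged 0.0451 ± 0.0125 in light zone gate members and 0.0206 ± 0.0144 in dark zone gate members, higher in the light zone gate on 18 of 19 plates.

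Gene by gene, the dark zone transcriptomes of the gates were hard to tell apart at this depth. Counts were summed per plate and gate on the 17 plates with at least 5 cells of both, which gave 196905 to 1050469 counts per light zone gate pool and 260439 to 1721652 per dark zone gate pool. Of 4558 genes tested with edgeR's quasi-likelihood test and plate as a block, 1 passed a Benjamini-Hochberg adjusted p of 0.05, which is 0.0219% of the genes tested, and 0 were higher in the light zone gate. At an unadjusted p under 0.05 there were 15 higher genes and 171 lower genes. Together these were 186 of 4558, no more than the 1 in 20 that this threshold marks by chance. The median log2 fold change over all genes was -0.29, and 30.1% of genes were above 0, so single genes are best read against that median. The other tool run, DESeq2, called 71 genes, 9 higher and 62 lower, with a median of -0.17.

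The gene that passed was Jchain, which links antibody polymers and is known from plasma cells. It ran at 1900, 2578 and 4565 CPM (counts scaled to each pool's total; lowest, median and highest plate) in light zone gate members, against 2387, 3197 and 6509 CPM in dark zone gate members. The ranges overlapped widely, but within plates it was lower in the light zone gate on 15 of 17. Its log2 fold change was -0.37 ± 0.07 (SE; edgeR adjusted p = 0.0300). The median was -0.29 over all genes tested and -0.16 over the 2040 with a mean of at least 100 CPM. How far Jchain departs from these medians was not tested. It missed the threshold when any of plates 2, 3, 7, 8, 9, 10, 11, 13, 15, 16, 17 or 18 was left out. With another normalization (RLE) its log2 fold change was -0.26 (edgeR adjusted p = 0.506), against a median of -0.19 over all genes. Jchain averaged 1935 ± 675 CPM in annotated light zone cells of the light zone gate.

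The genes of smallest p above 0 included Cd83, an activation protein of light zone cells, and Fas, a death receptor of germinal centre cells. None passed in edgeR. Cd83 ran at 361, 1309 and 2369 CPM in light zone gate members, against 4.54, 634 and 1090 CPM in dark zone gate members. It was higher in the light zone gate on 15 of 17 plates, with a log2 fold change of 1.08 ± 0.30 (SE; edgeR adjusted p = 0.434, and 0.0211 in DESeq2). Annotated light zone cells of the light zone gate stood above both, at 3332 ± 1012 CPM (18 plates). In phase G1 cells alone, on 6 plates, the log2 fold change of Cd83 was 0.09, against a median of -0.53 over all genes tested in those cells. Fas averaged 609 ± 237 CPM in light zone gate members and 340 ± 86.8 CPM in dark zone gate members, with 15 of 17 plates higher and a log2 fold change of 0.70 ± 0.24 (edgeR adjusted p = 0.870, and 0.00648 in DESeq2). Fas in G1 cells alone had a log2 fold change of -0.84, below that median.

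**Figure D1:**
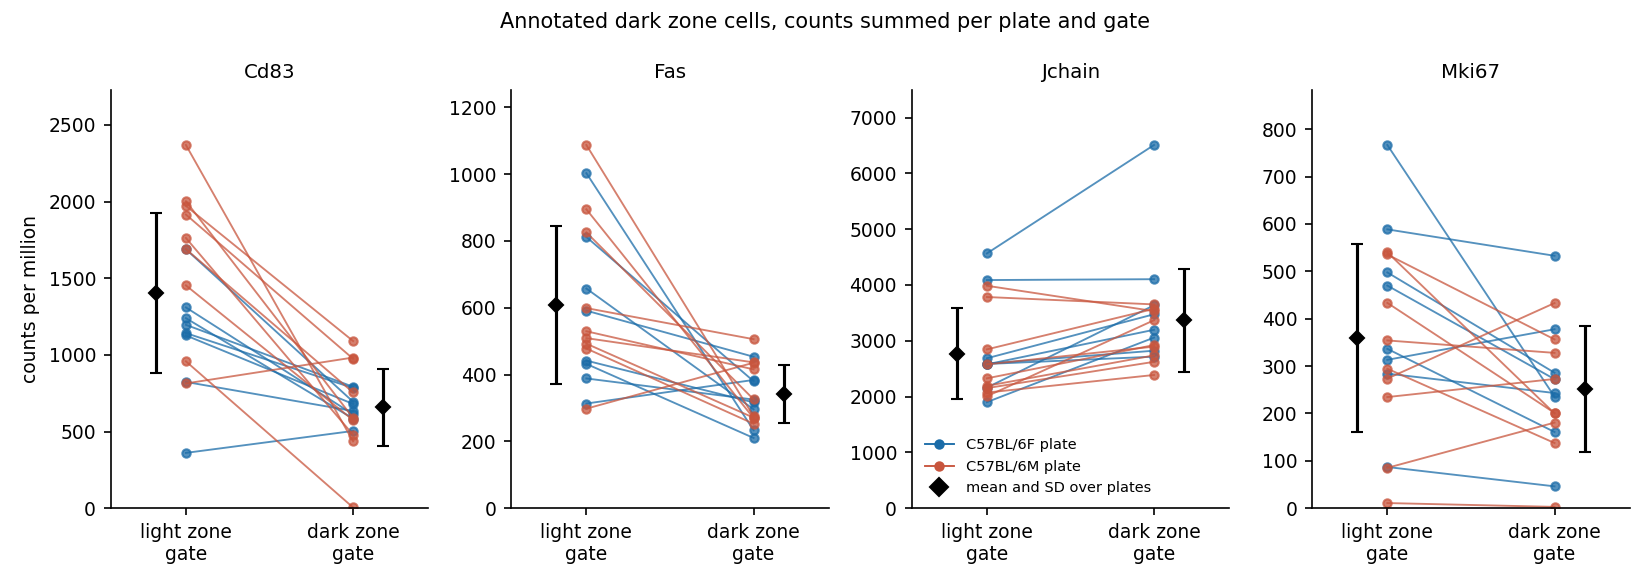
CPM of Cd83, Fas, Jchain and Mki67 in annotated dark zone cells summed per plate, light zone gate on the left and dark zone gate on the right, 1 line per plate, with the mean and SD over 17 plates as diamonds. Cd83 and Fas were higher in the light zone gate on 15 of 17 plates each without passing the edgeR test, Jchain was lower on 15 of 17 and passed, and Mki67 was higher on 13 of 17 without passing.

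The other 3 genes of smallest p above 0 were H2-Eb1, an MHC class II chain, Cd53, a tetraspanin, and Malat1, a nuclear noncoding RNA. Their log2 fold changes were 0.27 ± 0.08, 0.49 ± 0.16 and 0.19 ± 0.07, and none passed in edgeR. In DESeq2 all 3 passed, with adjusted p of 0.00178 for H2-Eb1, 0.0131 for Cd53 and 0.0195 for Malat1. H2-Eb1 averaged 4070 ± 1073 CPM in light zone gate members and 3204 ± 828.8 CPM in dark zone gate members. Below 0, Oaz1, an inhibitor of polyamine synthesis, averaged 2066 ± 342 CPM in light zone gate members and 2418 ± 433 CPM in dark zone gate members. Its log2 fold change was -0.30 ± 0.07 (edgeR adjusted p = 0.343), close to the median of all genes at -0.29. Ppp3ca and Gm12678 also ranked below 0. They were sparse, with 79 and 173 counts in all light zone gate pools against 561 and 1335 in all dark zone gate pools, and their fitted fold changes depend on the prior count.

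Of the genes behind the gate proteins, Cd86 did not pass and Cxcr4 was not tested. Cd86 averaged 334 CPM in light zone gate members and 195.3 CPM in dark zone gate members, with a log2 fold change of 0.30 ± 0.67 (edgeR adjusted p = 0.995). Cxcr4 had 31 counts over all light zone gate pools and 245 over all dark zone gate pools, too few to be tested.

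Of the dark zone list, 13 of 18 genes were tested and 0 passed in either direction. Their median log2 fold change was -0.08, above the median of all genes at -0.29, with 5 of 13 above 0. The 4 of smallest p were Gcsam at -0.53 ± 0.20, Pou2af1, a B cell coactivator, at -0.87 ± 0.33, and the transcription factors Foxo1 at -3.29 ± 1.65 and Foxp1 at -0.93 ± 0.58. The dark zone list's median turned to 0.03 under the RLE normalization and in DESeq2, where all genes had medians of -0.19 and -0.17. It lay below the median of all genes on C57BL/6M plates (-0.54 against -0.33), in pools of at least 8 cells (-0.41 against -0.12) and in G1 cells (-0.90 against -0.53). It lay above that median on C57BL/6F plates (-0.08 against -0.17) and in S and G2/M cells (-0.18 against -0.42).

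Of the light zone and activation list, 20 of 35 genes were tested and 0 passed in edgeR, while DESeq2 called 1 higher, and so did edgeR with no filter on low counts. Their median was 0.47, with 14 of 20 above 0. After Cd83, the smallest p belonged to Bcl2a1d, a survival protein, at -3.13 ± 1.32, to Cd69, an early activation marker, at 1.80 ± 1.07, and to Icam1, an adhesion ligand, at 1.33 ± 0.85. Summed over the list, light zone gate pools held 2146 to 5831 CPM and dark zone gate pools 729 to 3465 CPM.

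Of the S phase list, 31 of 33 genes were tested, 0 passed and the median was -0.16. Its smallest p belonged to Hells, a chromatin remodeller, at 0.89 ± 0.55, Dtl at -1.86 ± 1.22, Dut at -0.59 ± 0.44 and Pola1 at -1.39 ± 1.12. Of the G2 and M phase list, 31 of 32 genes were tested and 0 passed, with a median of 0.33 and 24 of 31 above 0. Mki67, the proliferation marker, stood at 0.48 ± 0.30, the kinesin Kif11 at 1.32 ± 0.89, Ube2c at 1.04 ± 0.88 and Top2a, a topoisomerase, at 0.73 ± 0.62. The G2 and M phase median was not alike by sampleID: it was 0.97 on C57BL/6F plates and -0.38 on C57BL/6M plates, a difference that was not tested.

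The remaining lists also held no gene that passed in edgeR, except the plasma cell list, where Jchain was 1 of 11 tested genes and the median was -0.37. DESeq2 called 1 higher gene in the germinal centre list and 1 in the MHC class II list. Medians were 0.07 for 13 MHC class II genes, 0.03 for 20 receptor and B cell identity genes, -0.08 for 17 germinal centre genes and -0.18 for 14 hypermutation and repair genes. They were -0.22 for 21 Myc target and ribosome biogenesis genes, -0.18 for 19 oxidative phosphorylation genes, 0.26 for 6 positioning receptors, 0.46 for 7 immediate early genes and -0.06 for 7 mitochondrial genes. Of the other cell type lists, 1 T cell gene (Lck), 1 myeloid gene (Cst3) and 2 red cell or stroma genes were tested. The summed T cell list ranged between 1.91 and 666 CPM in light zone gate pools and between 0 and 461 CPM in dark zone gate pools. Lck, a kinase known from T cells, made up nearly all of that sum: 42.4% of light zone gate members and 27.7% of dark zone gate members had a count, and its log2 fold change was 0.49 ± 0.67.

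**Figure D2:**
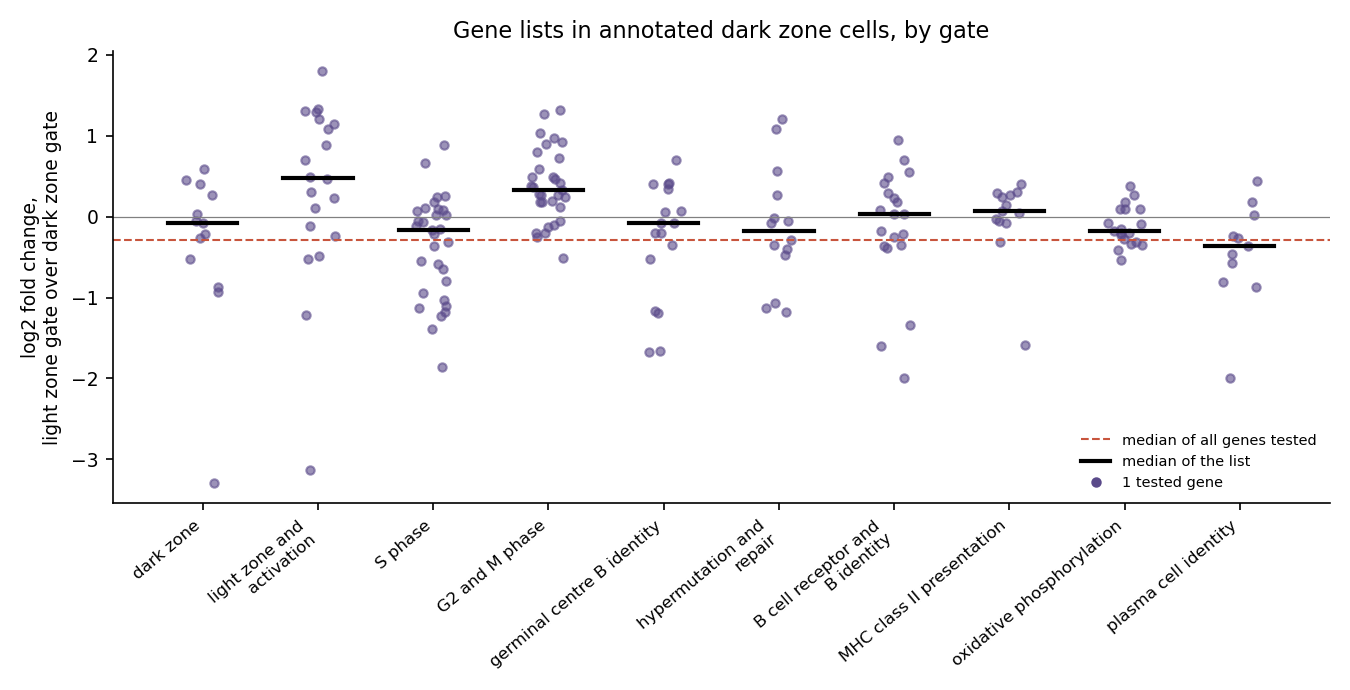
Log2 fold change, light zone gate over dark zone gate, of each tested gene in 10 lists, with the list's median as a black bar and the median of all 4558 genes as a dashed line at -0.29. Medians of the light zone list (0.47) and the G2 and M phase list (0.33) lie above 0, and Jchain is the only plotted gene that passed the test.

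Light zone gate members were less often in G1 by the deposited phase calls. The G1 share was 0%, 28.6% and 55.6% (lowest, median and highest plate) in light zone gate members, against 9.09%, 41.7% and 71.4% in dark zone gate members. Plates overlapped, with the light zone gate lower on 14 of 19 and higher on 4. The G1 share averaged 27.5 ± 15.3% in light zone gate members and 41.0 ± 14.6% in dark zone gate members, a difference of -13.5 percentage points (paired sign-flip permutation test, two-sided, 100000 resamples, p = 0.00504, adjusted over 3 phases p = 0.0151). The S share averaged 30.8 ± 17.9% in light zone gate members and 24.3 ± 12.2% in dark zone gate members, and the G2/M share averaged 41.8 ± 19.1% in light zone gate members and 34.8 ± 12.5% in dark zone gate members. Neither S nor G2/M passed (permutation test, adjusted p = 0.246 for both).

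The G1 difference missed the threshold on C57BL/6M plates alone (-11.7 points, adjusted p = 0.311). It also missed it on plates with at least 5 cells (-11.1 points, adjusted p = 0.0553) and in cells with at least 1000 genes (-10.2 points, adjusted p = 0.305). The phase calls rest on transcripts of the same cells, as do the phase gene lists above.

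**Figure D3:**
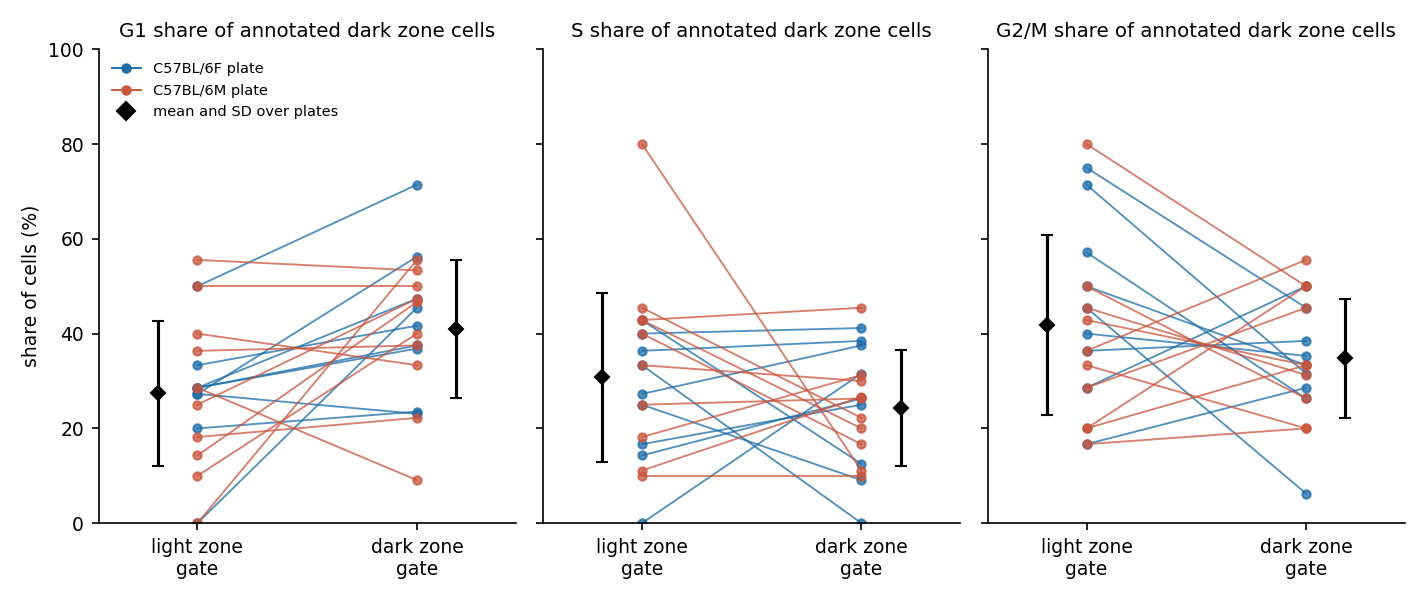
Share of annotated dark zone cells in G1, S and G2/M, in percent, light zone gate left and dark zone gate right, 1 line per plate with at least 3 cells of both gates, diamonds for the mean and SD over 19 plates. G1 averaged 27.5% in the light zone gate and 41.0% in the dark zone gate, while S and G2/M lines cross.

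Of the fluorescence channels that were not taken to set the gates, the 7 described here did not pass (adjusted over 8 channels). GL7, a glycan epitope of germinal centre cells, spread widely. Its plate medians were 0.432, 2.44 and 3.31 in light zone gate members and 1.21, 1.82 and 2.91 in dark zone gate members, and the difference of 0.33 did not pass (permutation test, adjusted p = 0.215). The dead cell dye (LiveDead) averaged -0.04 ± 0.21 in light zone gate members and -0.17 ± 0.12 in dark zone gate members, and the pooled Gr1, CD3 and IgD channel averaged 0.07 ± 0.11 in light zone gate members and 0.16 ± 0.11 in dark zone gate members. Both missed the threshold narrowly (permutation test, adjusted p = 0.0502 each), and both passed when plate means replaced medians (adjusted p = 0.0415 and 0.0121). CD38, B220, CD138 and PSGL1 did not pass, with adjusted p between 0.098 and 0.525.

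**Figure D4:**
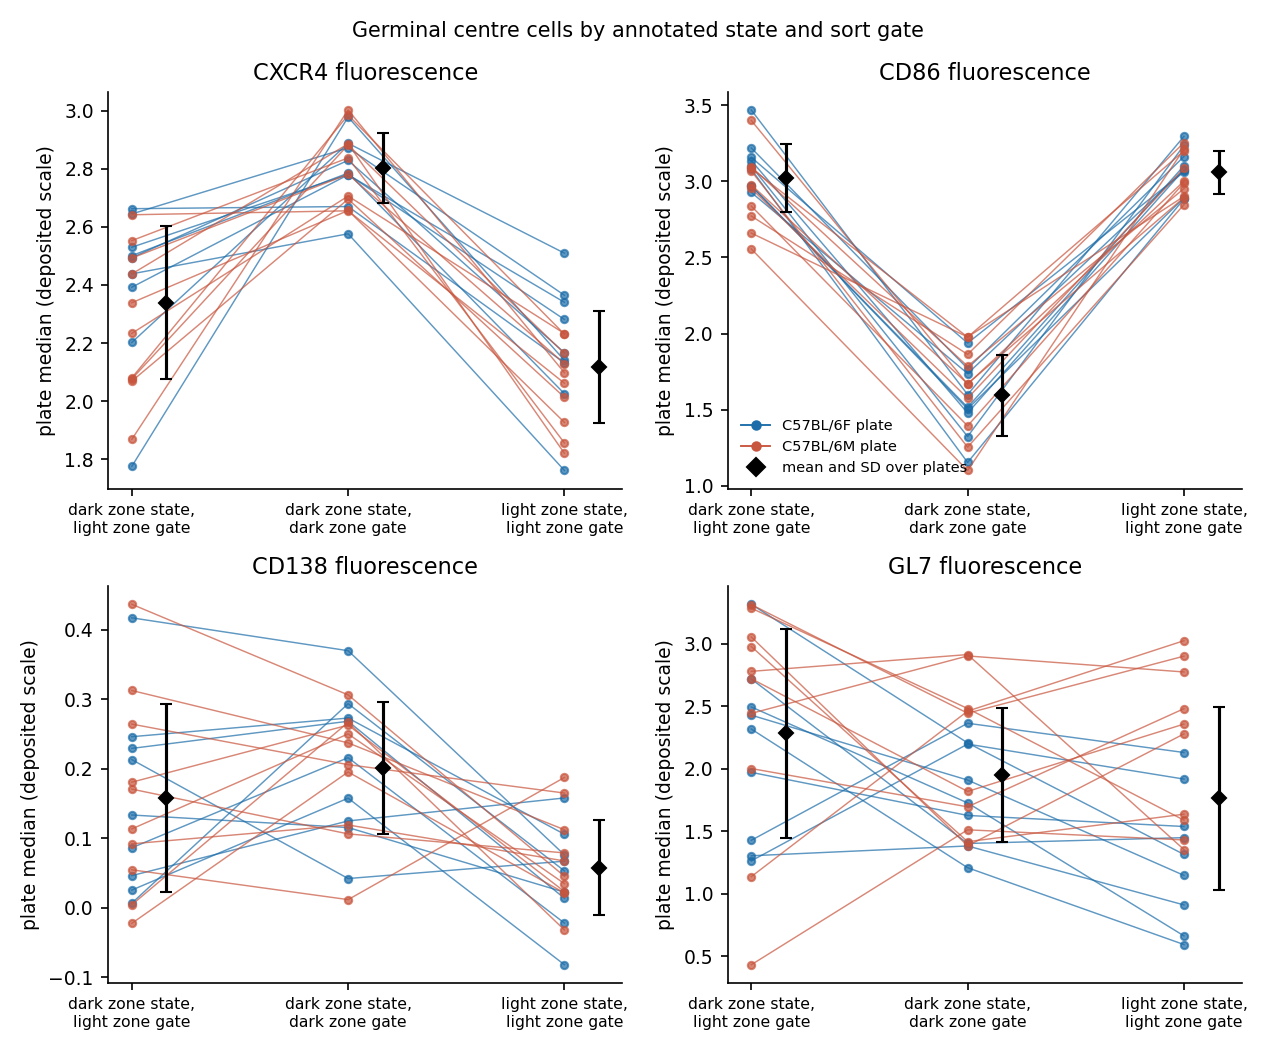
Plate medians of CXCR4, CD86, CD138 and GL7 fluorescence on the deposited scale in annotated dark zone cells of the light zone gate (left), annotated dark zone cells of the dark zone gate (middle) and annotated light zone cells of the light zone gate (right), 1 line per plate, diamonds for the mean and SD over 19 plates. CXCR4 in the left class averaged 2.34, below 2.80 in the middle class and above 2.12 in the right class, while CD86 was 3.02, 1.59 and 3.06.

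The antibody heavy chains of light zone gate members carried fewer mutations. To show what was counted, 3 stretches from 1 family of related cells follow. The clone cl541 used IGHV1-22 (mouse chromosome 12, minus strand, chr12:114746273-114746706 in GRCm38) and held 3 light zone gate members and 4 dark zone gate members, the most of any clone. Each line runs 5′ to 3′ over CDR1, FR2 and CDR2, with gaps removed and bases that differ from the deposited germline in capitals.
germline: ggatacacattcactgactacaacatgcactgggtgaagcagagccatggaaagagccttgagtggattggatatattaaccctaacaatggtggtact
light zone gate, plate 10, first cell: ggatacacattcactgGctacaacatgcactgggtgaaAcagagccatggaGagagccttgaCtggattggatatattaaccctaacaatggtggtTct
dark zone gate, plate 5: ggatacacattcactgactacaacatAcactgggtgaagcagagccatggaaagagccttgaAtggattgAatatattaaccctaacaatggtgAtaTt
dark zone gate, plate 10: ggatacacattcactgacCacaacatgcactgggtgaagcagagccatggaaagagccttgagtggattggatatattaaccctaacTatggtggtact

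These chains carried 8, 9 and 7 mutations in all, of which 5, 5 and 2 fall in the stretch shown. Counted from base 1 of the IMGT numbering, A184T was present in 3 of the 4 dark zone gate chains of this clone and in 0 of its 3 light zone gate chains, and A193T in 2 of the 3 light zone gate chains and 0 of the 4 dark zone gate chains. Across the whole clone the counts were close, with a mean of 7.33 mutations in the light zone gate and 7.5 in the dark zone gate.

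A heavy chain was assembled in 75 of 139 light zone gate members and 133 of 249 dark zone gate members. Plate means of heavy chain mutations were 1.25, 3.60 and 5.67 (lowest, median and highest of 15 plates) in light zone gate members, against 1.25, 5.13 and 6.67 in dark zone gate members. Plate ranges overlapped, but within plates the light zone gate was lower on 14 of 15, the exception being plate 13 with 1.33 in the light zone gate and 1.25 in the dark zone gate. The mean was 3.27 ± 1.40 in light zone gate members and 4.87 ± 1.42 in dark zone gate members, a difference of -1.60 (exact paired permutation test, two-sided, p = 0.000122, adjusted over 3 mutation measures p = 0.000366). It was -1.37 on 7 C57BL/6F plates and -1.81 on 8 C57BL/6M plates (exact permutation test, adjusted p = 0.0469 each). The test treats plates as independent, but single clones ran across plates: the clones cl541 and cl486 each held cells of 4 plates. Taking 1 value per clone, plate and gate gave -1.50, a setting that does not join a clone across plates. Differences from germline over the V region were also recounted and averaged over all chains instead of plates. This gave 3.07 per chain in light zone gate members and 4.34 in dark zone gate members. The deposited counts averaged over all chains were 3.51 and 4.83 in that order. The recount equalled the deposited count in 143 of 208 chains and lay within 2 of it in 202.

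The shift showed at both ends of the distribution. Chains with at most 1 mutation were 24 of 75 in light zone gate members (32.0%), against 18 of 133 in dark zone gate members (13.5%). Chains with at least 8 were 6 of 75 in light zone gate members and 24 of 133 in dark zone gate members. Replacement and silent mutations are given as a description, as averages of plate means on 15 plates. Replacement mutations averaged 2.72 in light zone gate members and 4.05 in dark zone gate members. Silent mutations averaged 0.79 in light zone gate members and 1.13 in dark zone gate members. By region, the bases that differed from germline in CDR1 were 19 of 1764 (1.08%) in light zone gate members and 78 of 3131 (2.49%) in dark zone gate members. In CDR2 they were 39 of 1806 (2.16%) in light zone gate members and 101 of 3162 (3.19%) in dark zone gate members. In FR3 they were 105 of 8447 (1.24%) in light zone gate members and 244 of 15059 (1.62%) in dark zone gate members. Bases of 1 chain and chains of 1 clone are not independent, so regions have no test.

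**Figure D5:**
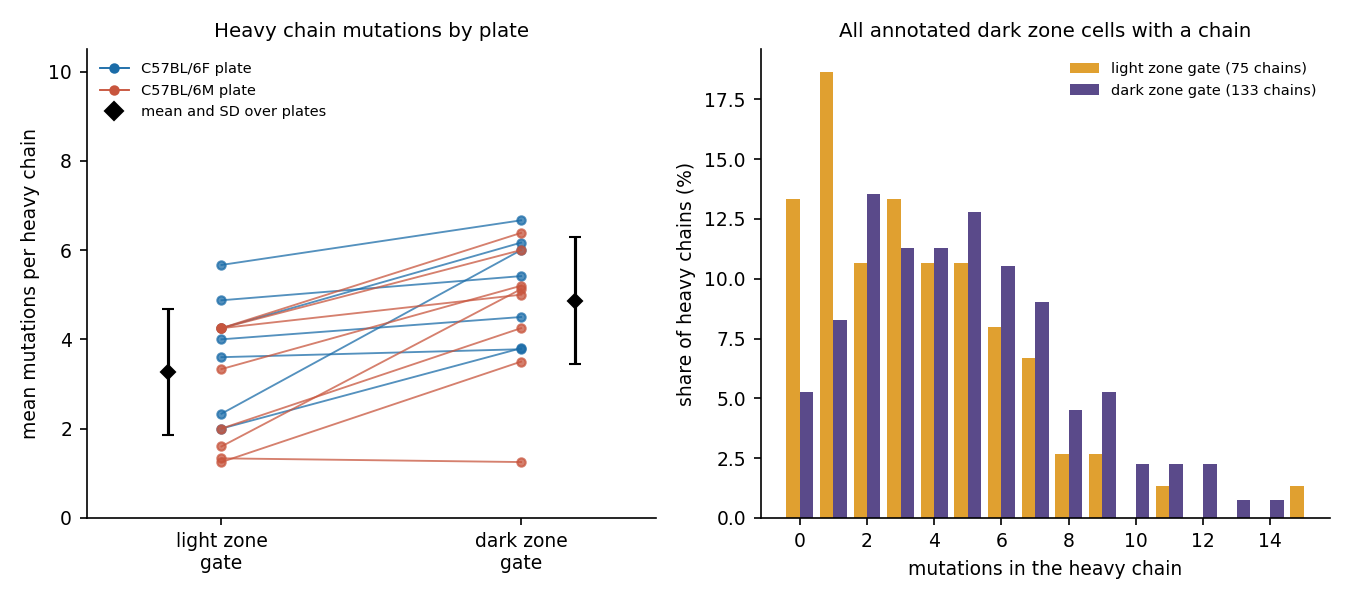
Left, mean mutations per heavy chain on the 15 plates with at least 3 chains in both gates, light zone gate left and dark zone gate right, diamonds for mean and SD. Right, share of all heavy chains by number of mutations, 75 chains of the light zone gate and 133 of the dark zone gate; 14 of 15 plate lines climb toward the dark zone gate.

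Light chain mutations averaged 2.42 ± 0.77 in light zone gate members and 2.74 ± 0.76 in dark zone gate members, and did not pass (permutation test, 19 plates, adjusted p = 0.0977). With 1 value per clone, plate and gate they differed by -0.997 (permutation test, adjusted p = 0.00861). That setting kept 14 plates, so it differs from the main test in its plates as well as its weighting. The share of heavy chains with 0 mutations was 14.7 ± 14.7% in light zone gate members and 6.59 ± 13.9% in dark zone gate members, and did not pass (permutation test, adjusted p = 0.0977).

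V gene use also varied between the gates. IGHV1-72, the V gene known from responses to the NP hapten in this strain, gave 6 of 75 chains in light zone gate members and 22 of 133 in dark zone gate members, and IGHV1-22 gave 3 chains in light zone gate members and 17 in dark zone gate members. Those chains were the more mutated ones in both gates: IGHV1-72 chains averaged 6.33 mutations in light zone gate members and 7.09 in dark zone gate members, and IGHV1-22 chains 7.33 in light zone gate members and 7.76 in dark zone gate members. All other V genes together averaged 3.08 in 66 light zone gate chains and 3.77 in 94 dark zone gate chains. Without IGHV1-72 chains the plate difference was -1.52 (adjusted p = 0.0205), and without IGHV1-22 chains it was -1.38 (adjusted p = 0.000366). Without both it was -1.09 on 11 plates, lower on 7 and higher on 4 (permutation test, adjusted p = 0.0732). On the 18 plates with at least 1 such cell it was -0.31 (permutation test, adjusted p = 0.745). These V gene settings were chosen after seeing the data. The share of IGHV1-72 averaged 8.06% of chains in light zone gate members and 17.8% in dark zone gate members, with no test.

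IGHV1-72 (chr12:115757984-115758461, minus strand, GRCm38) has a known affinity position in CDR1, where tryptophan replaced by leucine raises binding to NP. The stretch around that codon is shown with changed bases in capitals.
IGHV1-72 germline: accagctactggatgcactgg
leucine at the codon, 1 light zone gate and 4 dark zone gate members: accagctactTgatgcactgg
unchanged, 3 light zone gate and 3 dark zone gate members: accagctactggatgcactgg

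G113T, in IMGT codon 38, was present in 2 of 6 covered IGHV1-72 chains of light zone gate members and 9 of 20 of dark zone gate members. The codon read leucine in 2 light zone gate members and 8 dark zone gate members, and tryptophan in 4 light zone gate members and 11 dark zone gate members. It read phenylalanine in 1 dark zone gate member. With 6 chains in the light zone gate, a difference was not detectable at this depth.

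The members' heavy chains formed 158 clones, and 14 of these held cells of both gates, 22 cells in each. In clones of both gates the mean over clones was 5.12 mutations in light zone gate members and 5.64 in dark zone gate members. The light zone gate had more mutations in 6 of the 14 clones and fewer in 8, with a median difference of -0.5. Cells of clones seen in 1 gate averaged 2.72 mutations in the light zone gate and 4.57 in the dark zone gate. The clone cl486 (IGHV1-22) held 6 cells, all in the dark zone gate, with a mean of 9.5 mutations. The clone cl112 (IGHV14-2) averaged 8.67 mutations in 3 light zone gate members and 9.5 in 2 dark zone gate members. The clone cl647 held cells of both sampleIDs.

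Other receptor measures did not pass. IgM was the leading constant region in 27.7 ± 19.2% of light zone gate members and 25.2 ± 9.09% of dark zone gate members (permutation test, adjusted p = 0.890). Lambda light chains made up 24.9 ± 16.04% in light zone gate members and 36.9 ± 16.3% in dark zone gate members (19 plates, lower in the light zone gate on 13, permutation test, adjusted p = 0.330). On C57BL/6M plates alone the lambda difference was -17.7 points (adjusted p = 0.0469), and without plate 2 it was -15.2 points (adjusted p = 0.0388). IgA led in 0 of 130 light zone gate members and in 8 of 229 dark zone gate members (3.49%). The 0 allows a share of up to 2.31%, an approximate upper limit of 3 cells divided by 130. The difference in IgA was not tested. Intervals and limits cover counting error only.

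Inside the light zone gate, annotated dark zone cells could be set against annotated light zone cells that had passed the same sort. CXCR4 and CD86 were taken to set this gate, so the sort itself limited how far the classes could differ in them. Their tests therefore cannot decide whether the states differ in these proteins outside the gate. CD86 plate medians were 2.55, 3.07 and 3.47 in dark zone state cells, against 2.85, 3.07 and 3.29 in light zone state cells. The difference of -0.04 did not pass (permutation test, adjusted p = 0.764). CXCR4 was 1.78, 2.44 and 2.66 in dark zone state cells, against 1.76, 2.13 and 2.51 in light zone state cells. It was higher in dark zone state cells on 14 of 19 plates, by 0.22, and did not pass (permutation test, p = 0.0144, adjusted over 10 channels p = 0.0720). It passed when plate 2, 4, 11 or 16 was left out.

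CD138, a plasma cell proteoglycan, passed inside the light zone gate, at low levels. Plate medians were -0.02, 0.13 and 0.44 in dark zone state cells, against -0.08, 0.05 and 0.19 in light zone state cells, higher in dark zone state cells on 15 of 19 plates by 0.10 (permutation test, adjusted p = 0.0342). It missed the threshold when any of 12 single plates was left out: 1, 3, 5, 7, 9, 10, 12, 13, 15, 18, 19 or 20. GL7 averaged 2.28 ± 0.84 in dark zone state cells and 1.76 ± 0.73 in light zone state cells (permutation test, adjusted p = 0.188). Heavy chain mutations averaged 3.27 ± 1.40 in dark zone state cells and 3.74 ± 1.27 in light zone state cells, and did not pass (permutation test, 15 plates, adjusted p = 0.309). The phase makeup, given with no test because the annotation may rest on the same transcripts, was 41.8 ± 19.1% G2/M in dark zone state cells and 16.6 ± 9.40% in light zone state cells, and 27.5% G1 in dark zone state cells and 45.5% in light zone state cells.

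Whether these gate differences belong to the dark zone state was asked by taking the same difference in annotated light zone cells, on the 11 plates with at least 3 cells of each kind. Heavy chain mutations differed by -1.97 in dark zone state cells and -0.71 in light zone state cells on 5 plates (exact permutation test, p = 0.3125; 5 plates cannot go below 0.0625). The G1 share differed by -12.8 points in dark zone state cells and -12.1 points in light zone state cells, with no test. No measure described here passed, so none of the gate differences is shown to be particular to the dark zone state. The gate differences on C57BL/6F and C57BL/6M plates also passed no test of their difference. For genes, the interaction of gate and sampleID in edgeR called 0 of 4558 genes. An unadjusted p under 0.05 was reached by 94 of them, fewer than the 1 in 20 marked by chance.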

How the data were processed

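Gene counts were made by the authors with STAR 2.5.3a and HTSeq 0.9.1 on mm10, per the submitters' processing notes, and are used as deposited. Fluorescence scores (inverse hyperbolic sine, per the deposited column names), zone scores and mutation numbers per chain are the authors' own, as is the spike-in fraction of each cell's counts in the deposited table. The steps behind annotation, phase, clones and gate boundaries are not given in the sources used here. Cells were index-sorted 1 per well and no doublet caller was run.

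The members, lists and tests were chosen with earlier results of these data known. Counts of annotated dark zone cells were summed per plate and gate where both held at least 5 cells, filtered with filterByExpr, scaled by TMM and tested with edgeR 4.0.16 (quasi-likelihood, plate as block, Benjamini-Hochberg) in R 4.3.3, and DESeq2 1.42.0 was an alternative. Cell measures were averaged per plate and gate with at least 3 cells, with the median for fluorescence, counts, genes and spike-in fraction. They were compared within plates by a two-sided sign-flip permutation test (scipy 1.17.1, numpy 2.4.6), exact up to 16 plates and with 100000 resamples above. P-values were adjusted within 3 phases, 8 channels, 3 mutation measures and 6 receptor and depth measures. CXCR4 and CD86 were taken as the gate channels and not tested between the gates. Inside the light zone gate they were tested with the other channels, and p-values were adjusted over 10 channels. Named genes were Cxcr4, Cd83 and Cd86, the 4 of smallest p in each of 4 lists, and the 5 of smallest p in each direction, since fewer than 5 passed. Some genes and 1 channel that were tested are not reported here. Scripts were checked on simulated data. The files held 0 columns of unmapped samples. V gene positions are from GENCODE M21, on the GRCm38 build.

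Pairing comes from the plate: cells of both gates were sorted into the same plate.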

Additional observations from a re-analysis of the deposited data

Results flagged for a closer look

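The search for a plate far from the others covered 78 sets of plate differences and found 4. A set was 1 measure in 1 comparison (between the gates or inside the light zone gate), or 1 gene between the gates, within 1 sampleID. Chance marks about 1 in 20 sets.

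On C57BL/6M plate 12, the S phase share was 68.9 percentage points higher in light zone gate members (80.0% of 5 cells) than in dark zone gate members (11.1% of 9 cells), while the other plates lay between -15.6 and 23.3 points. Cd83, the light zone activation gene, had a log2 difference of 7.43 on C57BL/6M plate 16 (958 CPM in the light zone gate pool and 4.54 CPM in the dark zone gate pool, with a pseudocount of 1 CPM). The other plates lay between -0.272 and 2.44 for Cd83. Without plate 16 its log2 fold change was 0.91 (edgeR adjusted p = 0.0630, against 0.434 with it). H2-Eb1, an MHC class II gene, had a log2 difference of 1.41 on C57BL/6F plate 2, with 4260 CPM in the light zone gate pool and 1610 CPM in the dark zone gate pool, while the other plates lay between -0.0929 and 0.526. Inside the light zone gate, PSGL1 was -0.0352 on C57BL/6M plate 19, with 0.0150 in 4 dark zone state cells and 0.0502 in 14 light zone state cells. The other plates lay between -0.00772 and 0.0230 for PSGL1.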

How the results depend on the processing

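Plate was the block throughout the gene fit. With sampleID as covariate and no replicate block, 0 genes were called. Replicate numbers in the labels follow accession order and pair nothing. The count of called genes was also 0 with RLE scaling, with pools of at least 3 or of at least 8 cells, with cells thinned to 20000 counts, in G1 cells, in S and G2/M cells, on C57BL/6F plates and on C57BL/6M plates. It was 71 in DESeq2, 3 with no filter on low counts, and between 0 and 1 with 1 plate left out. The cause of these differences was not tested. Heavy chain mutations were lower in the light zone gate under every alternative run, but missed the threshold on plates with at least 5 chains (-1.19), in S and G2/M cells (-1.28), without IGHV1-72 and IGHV1-22 chains (-1.09, and -0.31 with plates of at least 1 cell) and in G1 cells on plates with at least 1 cell (-1.55). The adjusted p in these settings was 0.188, 0.0703, 0.0732, 0.745 and 0.281 in that order (permutation test). Those settings kept 4, 9, 11, 18 and 10 plates in that order, against 15. The G1 share missed it on plates with at least 5 cells (-11.1 points), in cells with at least 1000 genes (-10.2) and on C57BL/6M plates (-11.7). Inside the light zone gate, CD138 missed it on plates with at least 5 cells (0.0672), in G1 cells (0.219), in S and G2/M cells (0.0930), on C57BL/6F plates (0.112) and on C57BL/6M plates (0.0903).

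Some measures that had missed the threshold passed it: light chain mutations with 1 value per clone (-0.997, and -0.7155 with plates of at least 1 cell), chains with 0 mutations in S and G2/M cells on plates with at least 1 cell (16.5 points), the Gr1, CD3 and IgD channel with plate means (-0.107) and in S and G2/M cells on plates with at least 1 cell (-0.141), and the dead cell dye with plate means (0.114). Other values changed sign without being called. In cells with at least 1000 genes these were B220 (-0.0135), CD138 (0.0117) and CD38 (-0.0220). In G1 cells they were CD138 (0.1435), the Gr1, CD3 and IgD channel (0.0261), PSGL1 (0.00494) and light chain mutations (0.0125), and on plates with at least 1 cell B220 (-0.0429), CD138 (0.0410), CD38 (-0.106) and chains with 0 mutations (-4.17 points). B220 was -0.0198 with plate means and -0.0728 in S and G2/M cells (-0.0640 with plates of at least 1 cell). CD38 was -0.0286 on C57BL/6M plates. CD86 inside the light zone gate was 0.0268 on C57BL/6F plates.

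With each plate left out in turn, the Gr1, CD3 and IgD channel lay between -0.0998 and -0.0693, the dead cell dye between 0.105 and 0.139 and PSGL1 between -0.0106 and -0.00644. The first passed the threshold without plate 5, 7 or 20, the dye without plate 7, 9, 14, 17 or 20 and PSGL1 without plate 7. Inside the light zone gate, CD138 lay between 0.0846 and 0.114 and CXCR4 between 0.194 and 0.253. Heavy chain mutations (-1.72 to -1.46) and the G1 share (-15.3 to -11.2 points) stayed past the threshold. Leaving out plates or V genes, the manual phase calls, S and G2/M cells in cell measures and the plates with at least 1 cell of 1 phase or clone were chosen after seeing the data. Heavy chain mutations in G1 cells gave no value with at least 3 cells per plate and gate. Pools of few cells limit the gene test.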

Other observations

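IgA was the leading constant region in 0 light zone gate members and 8 dark zone gate members, and IgE in 0 light zone gate members and 1 dark zone gate member. IgG1 led in 71 light zone gate members and 109 dark zone gate members, IgM in 34 light zone gate members and 59 dark zone gate members, and IgG2b in 13 light zone gate members and 27 dark zone gate members. IgG2c led in 8 light zone gate members and 15 dark zone gate members, and IgG3 in 4 light zone gate members and 10 dark zone gate members. V genes with several chains in 1 gate included IGHV1-15, with 5 chains in light zone gate members and 0 in dark zone gate members, and IGHV3-6, with 0 in light zone gate members and 6 in dark zone gate members. Of the 6 IGHV3-6 chains, 5 belonged to the clone cl394, which averaged 6.4 mutations. The clone cl430 (IGHV1-15) held 3 light zone gate members and averaged 1.33 mutations. IGHV1-64 chains averaged 2.75 mutations in 8 light zone gate members and 4.83 in 6 dark zone gate members, and IGHV1-53 chains 3.67 in 6 light zone gate members and 5.29 in 7 dark zone gate members. These V genes and clones were chosen after their values were seen, and none was tested.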
